A study of Homo sapiens with 6 samples.

Results

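The genes described here are 46 named members of the interferon response and the class I antigen presentation machinery, read from the 29538 genes of a raw count table of MDA-MB-231 cells. All 46 were listed in the table by symbol and all 46 passed the filter on low counts that left 16412 genes for testing. MDA-MB-231 is an established human triple-negative breast cancer line of mesenchymal appearance. The cells carried either a negative-control siRNA (siNC, 3 biological replicates) or 1 siRNA duplex against BYSL (siBYSL, 3 biological replicates), a gene for a factor needed to mature the small ribosomal subunit. Both siRNAs were transfected with a lipid reagent at 160 pmol per well and the cells were harvested 48 h later, so all 6 libraries come from transfected cells, and neither untransfected cells nor a second BYSL siRNA is included here. The labels list no added interferon.

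Interferons are secreted proteins that bind paired receptors on the cell surface. The receptors activate JAK kinases, which phosphorylate STAT proteins. A complex that holds STAT2 and IRF9 enters the nucleus and binds the interferon-stimulated response element (ISRE), while the arm downstream of interferon gamma acts through the gamma-activated site (GAS). The target genes encode sensors of viral RNA, antiviral effectors, ubiquitin-like modifiers and the proteins that load peptides onto HLA class I molecules, and many are also expressed at a basal level in tumour cell lines.

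The targeted gene was checked first. BYSL (ENSG00000112578.10) stood at 99.9 ± 4.9 CPM (a gene's counts relative to the size of the library, scaled by trimmed-mean library factors) in the control libraries and 16.3 ± 0.94 CPM in the knockdown libraries (SD, n = 3), which is 16.4% of the control level (log2 fold change -2.61, SE 0.067, adjusted p = 9.4e-09, edgeR quasi-likelihood test). Library totals ran from 27754883 to 32088817 counts. The library siBYSL 3 stood apart from its replicates: the chi-square per degree of freedom over genes was 20.1 against siBYSL 1 and 12.3 against siBYSL 2, compared with 3.21 between siBYSL 1 and siBYSL 2 and 2.39 to 4.43 among the control pairs. Results that rest on it are therefore given with and without it. The 9 leukocyte markers found in the count table summed to 16.78 to 18.16 CPM in the controls and 16.85 to 21.21 CPM after knockdown. Other markers of that list, such as CD3E and MS4A1, were not in it. Most of this was CD14, at 11.2 ± 0.785 CPM in the controls and 12.9 ± 1.85 CPM after knockdown (SD, n = 3), and CSF1R, at 4.81 ± 0.27 CPM and 4.54 ± 0.48 CPM (SD, n = 3), while PTPRC had 0 to 9 counts in any library. The 8 luminal markers summed to 400.26 to 439.9 CPM in the controls and 320.84 to 391.54 CPM after knockdown, most of it KRT19, and ESR1 had 0 to 3 counts. The 8 markers of the labelled line summed to 6441.58 to 6680.01 CPM in the controls and 5809.6 to 6303.39 CPM after knockdown.

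Of the 46 genes, 5 were higher after BYSL knockdown and 15 were lower at an adjusted p under 0.05, and 26 were not called in either direction. These are 10.9% and 32.6% of the members. Over all genes tested, 18.5% were called higher and 18.4% lower, 36.9% in all, against 43.5% of the members in either direction. These all-gene shares are also the background for the counts by role and by list below. The median log2 fold change was -0.11 over the members and 0.0066 over all genes, and the changes were small: the members ran from -0.93 to 0.71, with a median absolute log2 fold change of 0.164 against 0.214 over all genes. The medians of the members in siBYSL 1, 2 and 3 against the control mean were -0.15, -0.09 and -0.15. The members did not move as one, and members of the same family went in opposite directions. In bulk RNA, less of a transcript in every cell and fewer cells that make it cannot be told apart. Without siBYSL 3, 9 members were called higher and 20 lower, with a median of -0.086. Over all genes tested in that fit, 23.5% were called higher and 24.3% lower. When libraries were scaled by their totals alone, 6 members were called higher and 9 lower, while over all genes 25% were called higher and 12.1% lower; 67.4% of all calls were then higher, compared with 50% under the trimmed-mean scaling.

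**Figure D1:**
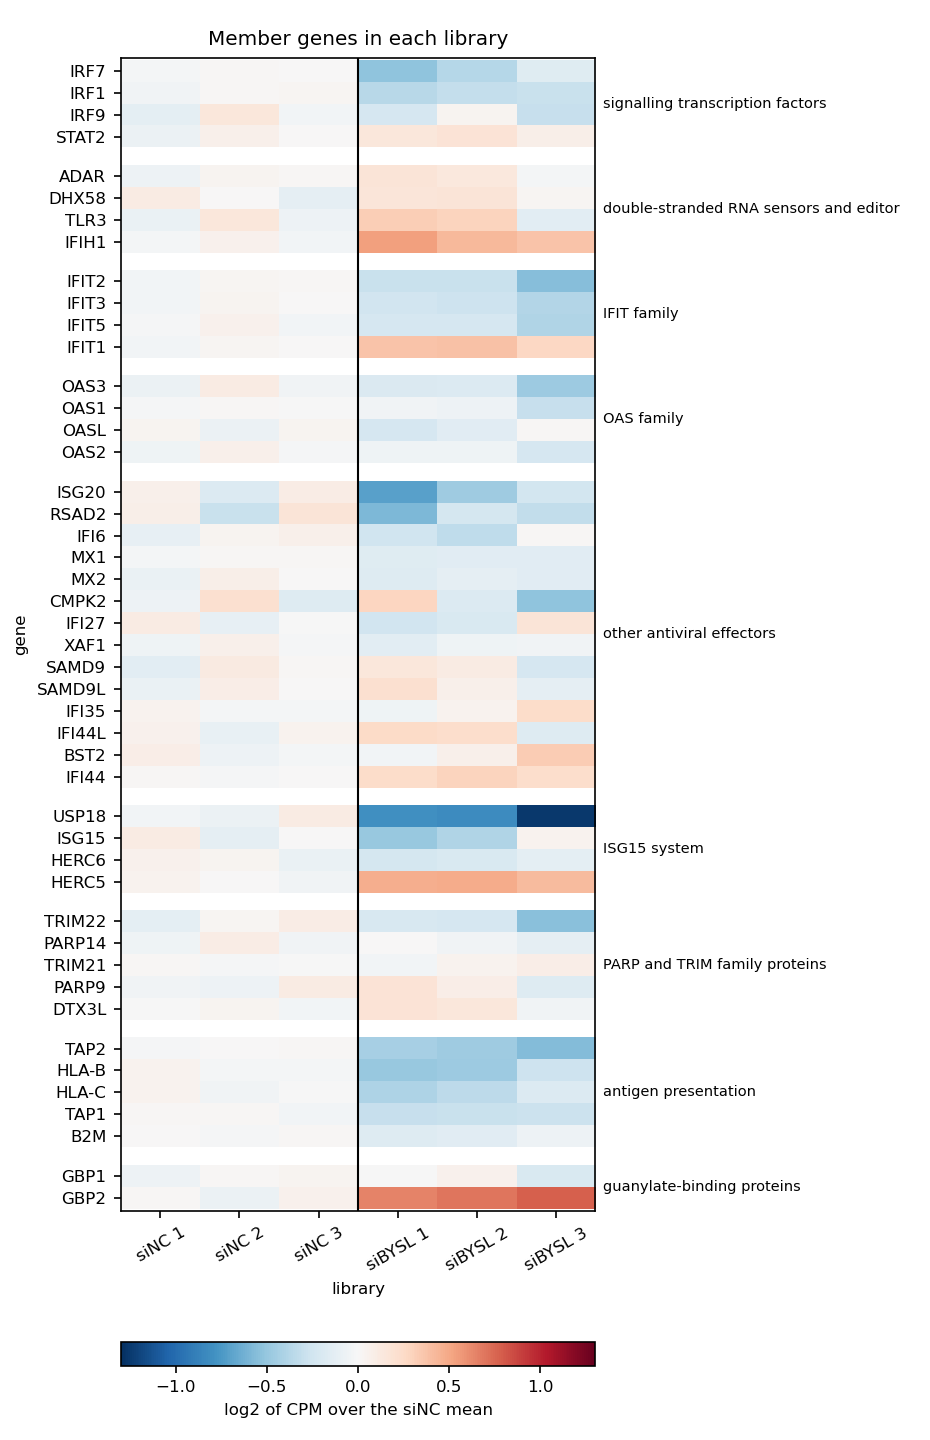
Each row is 1 of the 46 genes, grouped by role, and each column 1 library; the colour is the log2 CPM minus the mean over the 3 control libraries (red higher, blue lower). GBP2, HERC5, IFIH1, IFIT1 and IFI44 are higher in all 3 knockdown libraries, and USP18 shows the largest fall.

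Level differed widely among the members. In mean CPM of the control libraries, B2M was the highest at 1245.9, above HLA-B at 846.7. Levels were also divided by exon length, with the exons of all annotated transcripts of a gene merged. This length can exceed that of the transcript expressed, so the order depends on it (B2M 6.079 kb, HLA-B 3.051 kb). On this scale HLA-B stood at 277.5 CPM per kb and B2M at 204.9. BST2 stood at 149, ISG15 at 144.8, HLA-C at 142.8 and IFIT3 at 138.4 CPM per kb. The lowest levels per kilobase were 0.38 CPM per kb for IRF9 and 0.31 for IFI44L. The lowest count of any member in any library was 34, for USP18 and for IRF9 in siBYSL 3.

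Promoter sequence was compared first, because the ISRE is the element through which many of these genes are known to be induced. The search took the ISRE core, 2 GAAA blocks with any 2 bases between them, on both strands, in the window from 250 bases before to 50 bases after the RefSeq start site (GRCh38.p14). A window was found for 37 of the 46 members (not for MX2, IRF7, TRIM22, IFIT2, OASL, USP18, OAS2, GBP2 and DHX58), and 25 of these 37 (67.6%) held a match, compared with 3.57% of the 35116 promoter windows of all genes (4.38% of 27305 genes). The GAS core TTCNNNGAA was found in 10 of the 37 members (27.0%) and in 7.66% of all windows (9.38% of genes). Stretches of these windows are shown for neighbouring genes that moved in opposite directions, for other called members and for 2 highly expressed members that were not called. Capitals mark the ISRE matches within each stretch, read 5′ to 3′ on the gene's strand. The full windows of IFIH1 and IFIT5 each hold 3 matches, of which 1 and 2 are in the stretches.
IFIT1, chr10:89392497-89392539, plus strand: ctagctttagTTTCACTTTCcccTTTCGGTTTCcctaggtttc
IFIT3, chr10:89327831-89327894, plus strand: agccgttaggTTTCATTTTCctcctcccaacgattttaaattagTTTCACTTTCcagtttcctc
IFIT5, chr10:89414513-89414567, plus strand: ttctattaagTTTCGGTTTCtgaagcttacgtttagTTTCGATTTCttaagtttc
HERC5, chr4:88456984-88457064, plus strand: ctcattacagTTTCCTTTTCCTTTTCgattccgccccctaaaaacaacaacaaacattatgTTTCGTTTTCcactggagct
IFIH1, chr2:162318686-162318715, minus strand: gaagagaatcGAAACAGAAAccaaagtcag
IFI44, chr1:78649761-78649788, plus strand: gcacactgagTTTCAGTTTCctttctct
ISG20, chr15:88638937-88638966, plus strand: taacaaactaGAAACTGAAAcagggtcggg
TAP1, chr6:32853813-32853848, minus strand: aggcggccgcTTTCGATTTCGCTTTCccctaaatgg
TAP2, chr6:32838778-32838807, minus strand: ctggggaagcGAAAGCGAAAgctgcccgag
ISG15, chr1:1013374-1013409, plus strand: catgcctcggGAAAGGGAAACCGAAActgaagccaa
B2M, chr15:44711363-44711398, plus strand: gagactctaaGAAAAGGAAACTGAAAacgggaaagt

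Genes with a match were called in both directions. Of the 25 members with an ISRE match, 4 were higher, 7 lower and 14 not called, with a median log2 fold change of -0.055. Of the 12 with a window and no match, 0 were higher, 4 lower (HERC6, HLA-B, HLA-C and IRF1) and 8 not called, with a median of -0.12. Among the stretches shown, IFIT1, HERC5, IFIH1 and IFI44 belong to genes that rose, and IFIT3, IFIT5, ISG20, TAP1 and TAP2 to genes that fell. A match describes the letters only, and whether any factor binds there was not measured.

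The siRNA itself can act on other transcripts through its seed, so the matching heptamer was looked up among the members. The antisense strand of the BYSL siRNA is shown first with its seed (bases 2 to 8) in capitals, followed by the 6 members whose longest annotated 3′ UTR (GENCODE 29) holds the paired heptamer, in capitals, with the heptamer's position (GRCh38).
siBYSL antisense strand: uAUUCAGCaacgucaucuctt
USP18, chr22:18177226-18177232, plus strand: cttgtatactgGCTGAATatcagtgctgt
IFIT2, chr10:89308594-89308600, plus strand: tctaggtagatGCTGAATagcctagacat
B2M, chr15:44718777-44718783, plus strand: atccatggtttGCTGAATccacagatgtg
PARP14, chr3:122730716-122730722, plus strand: ctcagggcaagGCTGAATatcagagtgta
PARP9, chr3:122532177-122532183, minus strand: tcatcctccaaGCTGAATgcagggtcttg
TLR3, chr4:186086339-186086345, plus strand: ttcatttgtctGCTGAATtcagggagcat
These 6 are 13% of the 46 members. Over the 13069 tested genes that have a 3′ UTR in the annotation, 11.9% held it. USP18 and IFIT2 were called lower and the other 4 were not called. The 6 had a median log2 fold change of -0.090, from -0.93 to 0.18. The 40 members without the heptamer included 5 higher and 13 lower, with a median log2 fold change of -0.11. Whether the siRNA acts on any of these sites was not tested.

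The signal upstream of the genes was examined by ligand, receptor and transcription factor. Of the interferon genes in the table, IFNL1, a type III interferon, had 2, 4 and 4 counts in the control libraries and 3, 1 and 0 counts after knockdown. IFNE and IFNL3 each had 1 count in 1 knockdown library and 0 in the other libraries. None of the 3 could be tested. In the list of 17 receptors, kinases, STATs and brakes, 2 genes rose and 2 fell, with a median log2 fold change of -0.026. IFNAR1 (ENSG00000142166.13), a chain of the type I interferon receptor, stood at 64.3, 67.1 and 65.3 CPM in the 3 siNC libraries and 40.3, 38.03 and 37.5 CPM in the 3 siBYSL libraries, 58.9% of control (log2 fold change -0.76, SE 0.056, adjusted p = 5.24e-06). Its knockdown values were far below the control values, whereas IFNAR2, the partner chain, stood at 25.1 ± 0.486 CPM in the controls and 24.96 ± 1.22 CPM after knockdown (SD, n = 3) and was not called (log2 fold change -0.008, 95% interval -0.15 to 0.13, adjusted p = 0.936). IFNGR1, a chain of the interferon gamma receptor, went the other way, from 51.2 ± 1.9 CPM to 75.8 ± 9.5 CPM (SD, n = 3; log2 fold change 0.57, SE 0.084, adjusted p = 0.00044). STAT3, which the receptors of many cytokines activate, also rose (log2 fold change 0.43, SE 0.065, adjusted p = 0.000516).

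Among the 4 transcription factors, 0 rose and 2 fell. IRF1, which interferon gamma induces and which drives class I antigen presentation genes, stood at 151, 157 and 158 CPM in the 3 siNC libraries and 121, 125 and 127 CPM in the 3 siBYSL libraries (log2 fold change -0.32, SE 0.048, adjusted p = 0.000462). The knockdown libraries all lay below the control libraries. IRF7, which amplifies type I interferon production, stood at 9.27, 9.49 and 9.47 CPM in the controls and 6.55, 7.26 and 8.44 CPM after knockdown (log2 fold change -0.34, SE 0.104, adjusted p = 0.0245). Its groups did not overlap, but the call was lost when libraries were scaled by totals and when any 1 of the libraries other than siBYSL 3 was left out, with an adjusted p of up to 0.0841. STAT2, the partner of IRF9 in the ISRE-binding complex, stood at 80.5, 88.4 and 84.8 CPM in the controls and 93.5, 95.6 and 89.4 CPM after knockdown. All 3 knockdown values lay above the controls, yet the difference missed the threshold (log2 fold change 0.14, 95% interval 0.014 to 0.26, adjusted p = 0.0769). It was called higher without siBYSL 3, at 0.16 (adjusted p = 0.00536), with library totals, at 0.21 (adjusted p = 0.0184), and with upper-quartile factors, at 0.18 (adjusted p = 0.0248). IRF9, the DNA-binding part of the complex, was the member with the lowest mean CPM, at 1.32, 1.60 and 1.42 CPM in the controls and 1.248, 1.48 and 1.18 CPM after knockdown. The groups overlapped and the interval was wide (log2 fold change -0.14, 95% interval -0.56 to 0.27, adjusted p = 0.583).

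IFIH1 was the 1 riser among the 4 sensors and editors of double-stranded RNA. This gene encodes MDA5, a cytoplasmic sensor of long double-stranded RNA (ENSG00000115267.9, chromosome 2, 162267079 to 162318703, minus strand), and stood at 29.2, 30.7 and 28.9 CPM in the 3 siNC libraries and 42.7, 39.6 and 38.1 CPM in the 3 siBYSL libraries, 135.7% of control (log2 fold change 0.44, SE 0.064, adjusted p = 0.000396). The groups did not overlap. DHX58, which encodes LGP2, the regulator of this sensor, had a log2 fold change of 0.12 (adjusted p = 0.322), and TLR3, the endosomal sensor, of 0.18 (adjusted p = 0.309). Without siBYSL 3, TLR3 was called higher, at 0.31 (adjusted p = 0.0121). ADAR, which edits double-stranded RNA so that it escapes MDA5, stood at 163, 175 and 172 CPM in the controls and 191, 186 and 167 CPM after knockdown. Its siBYSL 3 value lay among the controls and the other two knockdown values above them (log2 fold change 0.094, 95% interval -0.039 to 0.23, adjusted p = 0.249), and without that library it was called higher at 0.15 (adjusted p = 0.00415). In the list of sensing genes upstream of interferon, 3 of 20 tested rose (15%) and 8 fell (40%), with a median of -0.076. Over all genes tested, the shares were 18.5% and 18.4%. IFI16, a nuclear DNA sensor, rose (log2 fold change 0.47, SE 0.051, adjusted p = 5.83e-05). SAMHD1, which hydrolyses dNTPs, STING1, the adaptor of the cytosolic DNA pathway, and TRIM25, a ligase of the RIG-I pathway, fell by 0.50, 0.54 and 0.39 on the log2 scale (adjusted p = 3.23e-05, 0.00012 and 0.000143). The STING1 3′ UTR also holds the guide-seed heptamer.

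The 4 IFIT genes, neighbours on chromosome 10 whose proteins bind foreign or improperly capped RNA, were all called, and not in 1 direction. IFIT1 (ENSG00000185745.10, chromosome 10, 89392546 to 89406486, plus strand) rose, at 127, 133 and 131 CPM in the controls and 169, 170.1 and 157 CPM after knockdown (log2 fold change 0.34, SE 0.052, adjusted p = 0.000499). IFIT2 (ENSG00000119922.11, chromosome 10, 89283694 to 89309276, plus strand) fell, at 160.4, 168 and 166 CPM in the controls and 134, 135 and 113 CPM after knockdown (log2 fold change -0.37, SE 0.070, adjusted p = 0.00185). The knockdown values of these neighbours lay on opposite sides of their controls. IFIT3 (ENSG00000119917.15, chromosome 10, 89327894 to 89340971, plus strand), the most abundant of the 4 and a partner of IFIT1 in its RNA-binding complex, stood at 355, 375 and 366 CPM in the controls and 307, 303 and 281 CPM after knockdown (log2 fold change -0.30, SE 0.054, adjusted p = 0.00152). IFIT5 stood at 56.8, 59.7 and 56.1 CPM in the controls and 49.5, 49.5 and 44.0 CPM after knockdown (log2 fold change -0.27, SE 0.063, adjusted p = 0.00676). For each of the 4 genes the knockdown values lay wholly on 1 side of the controls. As all 4 were already called, this is not a further result. How often it held over all genes is not given here. The call of IFIT5 was lost when libraries were scaled by totals, at an adjusted p of 0.0513. IFIT1, IFIT2 and IFIT3 overlap the annotated span of LIPA on the opposite strand. The libraries were strand-specific, the strand setting of the counting is not stated, and LIPA stood at 169 CPM in the controls and 160.0 CPM after knockdown (log2 fold change -0.074, adjusted p = 0.41).

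**Figure D2:**
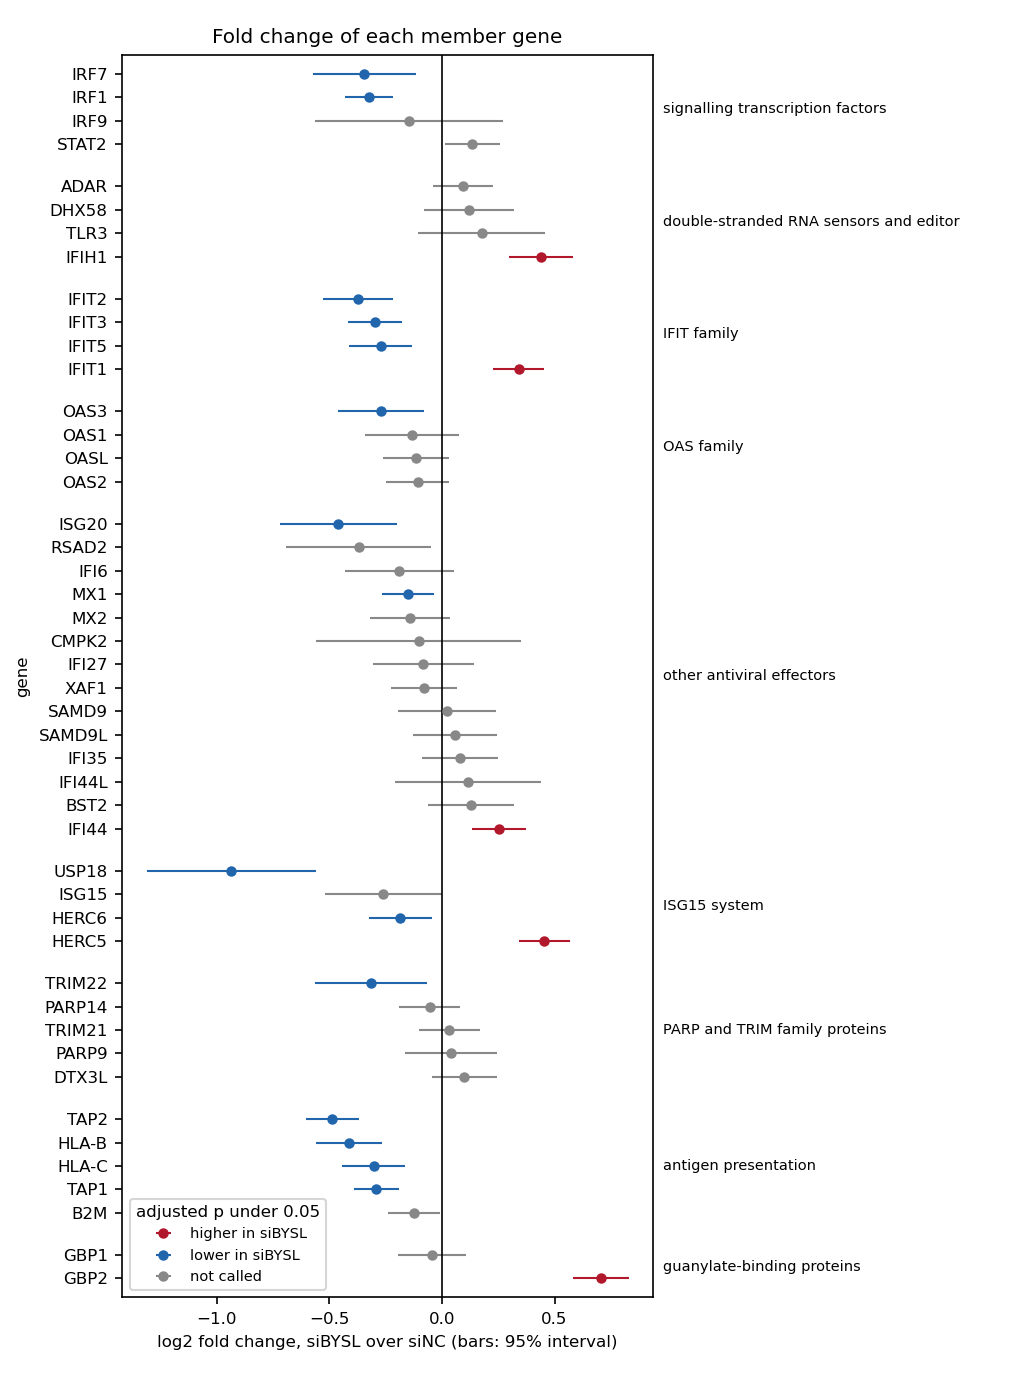
Log2 fold change (siBYSL over siNC) of each of the 46 genes by role, with its 95% interval as a bar; red and blue points passed an adjusted p of 0.05. The 5 genes that rose come from 5 different roles, and 4 of the 5 antigen presentation genes fell.

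The OAS genes encode double-stranded RNA sensors that make 2′-5′ oligoadenylates. In this family 0 of 4 rose and 1 fell. OAS3, the form most responsive to long double-stranded RNA, stood at 36.4, 41.4 and 37.2 CPM in the controls and 33.7, 33.9 and 27.7 CPM after knockdown (log2 fold change -0.27, SE 0.086, adjusted p = 0.0298). Its groups did not overlap, but the call was lost with library totals, with upper-quartile scaling and without siNC 2 or siNC 3 (adjusted p up to 0.13). OASL, an oligoadenylate synthetase-like protein without that enzymatic activity, had the highest CPM of the family, at 72.4, 67.2 and 72.4 CPM in the controls and 60.9, 63.7 and 71.2 CPM after knockdown, and was not called (log2 fold change -0.12, 95% interval -0.26 to 0.033, adjusted p = 0.205). Without siBYSL 3 it was called lower, at -0.18 (adjusted p = 0.00366). OAS1 and OAS2 had log2 fold changes of -0.13 (adjusted p = 0.304) and -0.11 (adjusted p = 0.214).

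Among the 14 other antiviral effectors, 1 rose and 2 fell. IFI44 (ENSG00000137965.11), an interferon-induced protein with GTP-binding motifs, stood at 40.0, 39.2 and 39.6 CPM in the controls and 46.6, 48.6 and 46.4 CPM after knockdown (log2 fold change 0.25, SE 0.054, adjusted p = 0.00429). Every knockdown value lay above every control value. ISG20, an RNA exonuclease, stood at 17.5, 14.7 and 17.8 CPM in the controls and 10.2, 12.1 and 14.1 CPM after knockdown (log2 fold change -0.46, SE 0.118, adjusted p = 0.0112). It fell in all 3 knockdown libraries, least in siBYSL 3, and the call was lost without siNC 3 (adjusted p = 0.0581). MX1, a dynamin-like GTPase that blocks influenza viruses, stood at 49.5, 50.9 and 51.1 CPM in the controls and 45.3, 45.6 and 45.6 CPM after knockdown (log2 fold change -0.15, SE 0.052, adjusted p = 0.0422). Its groups did not overlap, but the change is small and the call was lost in 10 of 14 alternative settings, with an adjusted p of up to 0.336. BST2, or tetherin, which holds budding virus particles at the cell surface, was the most abundant of the 14 at 178, 159 and 164 CPM in the controls and 162, 175 and 210.2 CPM after knockdown. The groups overlapped (log2 fold change 0.13, 95% interval -0.062 to 0.32, adjusted p = 0.27), and siBYSL 3 was the highest of the 6 libraries. The other 10 effectors were not called. They ran from -0.37 for RSAD2, which encodes the antiviral radical enzyme viperin (adjusted p = 0.0697), to 0.12 for IFI44L. Without siBYSL 3, RSAD2, IFI6 and IFI27 were called lower, at -0.39 (adjusted p = 0.0345), -0.30 (adjusted p = 0.0213) and -0.22 (adjusted p = 0.00155). RSAD2 was also called lower without siNC 2, at -0.49 (adjusted p = 0.0275), and without a filter on low counts, at -0.38 (adjusted p = 0.0251).

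In the ISG15 system, where the ubiquitin-like ISG15 is attached to proteins by HERC5 and removed by USP18, the 4 genes went different ways. USP18 (ENSG00000184979.10, chromosome 22, 18149899 to 18177397, plus strand), which also restrains signalling at the type I interferon receptor, had the largest fall of the 46, at 2.75, 2.68 and 3.03 CPM in the 3 siNC libraries and 1.63, 1.60 and 1.18 CPM in the 3 siBYSL libraries. This was 52.3% of control (log2 fold change -0.93, SE 0.171, adjusted p = 0.00161). The groups were far apart, although the gene had only 75 to 90 counts in the controls and 34 to 53 after knockdown. HERC5 (ENSG00000138646.9, chromosome 4, 88457117 to 88506163, plus strand), the main ISG15 ligase, rose, at 76.6, 74.1 and 71.6 CPM in the controls and 103, 104 and 98.4 CPM after knockdown, 137.1% of control (log2 fold change 0.46, SE 0.052, adjusted p = 7.78e-05). HERC6, its neighbour and relative, stood at 38.4, 37.8 and 34.8 CPM in the controls and 31.5, 32.3 and 33.7 CPM after knockdown (log2 fold change -0.19, SE 0.063, adjusted p = 0.0409). The HERC6 groups did not overlap, but the call was lost in 8 of 14 alternatives (adjusted p up to 0.214). ISG15 itself stood at 146, 126 and 136 CPM in the controls and 96.9, 104 and 141 CPM after knockdown. The libraries siBYSL 1 and siBYSL 2 lay below every control and siBYSL 3 among them, and the change was not called (log2 fold change -0.26, 95% interval -0.52 to -0.0009, adjusted p = 0.106); it was called lower without siBYSL 3, at -0.44 (adjusted p = 1.76e-06), and without a filter on low counts, at -0.27 (adjusted p = 0.00297).

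In the group of 5 PARP and TRIM genes, which also holds DTX3L as the partner of PARP9, 0 rose and 1 fell. TRIM22, an antiviral ubiquitin ligase, stood at 7.84, 8.74 and 9.16 CPM in the controls and 7.42, 7.35 and 5.90 CPM after knockdown, close to the threshold (log2 fold change -0.32, SE 0.114, adjusted p = 0.0498). Its groups did not overlap, but the call was lost in 11 of 14 alternatives, among them the fit without siBYSL 3, where the log2 fold change was -0.22 (adjusted p = 0.0901). It overlaps the annotated span of TRIM5 on the opposite strand, which rose by 0.39 (adjusted p = 0.0131). PARP14, a mono-ADP-ribosyltransferase, was the most abundant of the 5 at 65.8, 72.9 and 66.1 CPM in the controls and 68.3, 66.02 and 62.8 CPM after knockdown. Its groups overlapped (log2 fold change -0.055, 95% interval -0.19 to 0.079, adjusted p = 0.512), and with library totals the log2 fold change was 0.024. DTX3L and PARP9, which form a complex, and TRIM21, a cytosolic antibody receptor, had log2 fold changes of 0.099, 0.039 and 0.034, none called. Without siBYSL 3, DTX3L was called higher, at 0.16 (adjusted p = 0.00543).

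Antigen presentation was the role with the largest share of members called lower: 4 of 5, with 0 higher. Over all genes tested, 18.4% were called lower. HLA-B (ENSG00000234745.13, chromosome 6, 31269491 to 31357188, minus strand, a span that in GENCODE 29 overlaps part of HLA-C), a class I heavy chain that carries peptides to the cell surface, stood at 877, 831 and 832 CPM in the 3 siNC libraries and 601, 609 and 701 CPM in the 3 siBYSL libraries, 75.2% of control (log2 fold change -0.41, SE 0.067, adjusted p = 0.000772). The groups did not overlap, and siBYSL 3 was the knockdown library nearest to the controls. HLA-C, another heavy chain, stood at 369.8, 348 and 356 CPM in the controls and 271, 283 and 317 CPM after knockdown (log2 fold change -0.30, SE 0.064, adjusted p = 0.00386). Reads from the 2 heavy chains resemble each other and vary between people and lines, so their split between HLA genes depends on the counting. TAP1 and TAP2 form the transporter that carries peptides into the endoplasmic reticulum. TAP1 (ENSG00000168394.12, chromosome 6, 32845209 to 32853978, minus strand) stood at 160.3, 161 and 155 CPM in the controls and 129, 129.7 and 131 CPM after knockdown (log2 fold change -0.29, SE 0.046, adjusted p = 0.000659). TAP2 (ENSG00000204267.16, chromosome 6, 32821833 to 32838780, minus strand) stood at 92.4, 94.2 and 94.5 CPM in the controls and 69.6, 67.8 and 63.3 CPM after knockdown, 71.4% of control (log2 fold change -0.49, SE 0.054, adjusted p = 6.64e-05). Both sets of knockdown values lay below all control values. B2M, the light chain of every class I molecule, stood at 1249.6, 1232 and 1256 CPM in the controls and 1112, 1128 and 1188 CPM after knockdown. Its knockdown values also lay below all controls, yet the difference was small and not called (log2 fold change -0.13, 95% interval -0.24 to -0.010, adjusted p = 0.0821); without siBYSL 3 it was called lower, at -0.15 (adjusted p = 0.00256).

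The wider class I list held genes called in both directions. Of 21 tested genes outside the members, 2 rose (9.5%) and 8 fell (38.1%), with a median log2 fold change of -0.12. Over all genes tested, 18.5% were called higher and 18.4% lower. MICB and MICA, stress-induced ligands of the NK receptor NKG2D, stood at 126 ± 1.1 and 149 ± 6.0 CPM in the controls and at 85.6 ± 7.3 and 116 ± 6.2 CPM after knockdown (SD, n = 3; adjusted p = 7.49e-05 and 0.000572). PSMB9, a subunit of the immunoproteasome, fell by 0.50 on the log2 scale (adjusted p = 0.000413) and HLA-F, a non-classical class I gene, by 0.34 (adjusted p = 0.0019). PSMB9 overlaps TAP1 on the opposite strand. The 2 that rose were NLRC5, the transactivator of class I genes, at 0.31 (adjusted p = 0.00991), and CALR, the chaperone calreticulin, at 0.22 (adjusted p = 0.0116), both as log2 fold changes and both named after their values were seen. In the list of 56 other tested interferon-stimulated genes, 4 rose (7.1%) and 11 fell (19.6%), with a median of -0.033. The share called lower was thus close to the 18.4% of all genes tested, and the share called higher was below their 18.5%. OGFR, the opioid growth factor receptor, stood at 48.6 ± 1.65 CPM in the controls and 108 ± 10.8 CPM after knockdown (SD, n = 3), called higher (log2 fold change 1.15, SE 0.073, adjusted p = 2.15e-06). CD274, which encodes the T cell inhibitory ligand PD-L1, stood at 22.9 ± 1.60 CPM in the controls and 11.3 ± 1.09 CPM after knockdown (SD, n = 3), called lower (log2 fold change -1.01, SE 0.089, adjusted p = 1.66e-05). CASP1, the inflammasome protease, fell by 1.04 on the log2 scale (adjusted p = 3.45e-05) and PARP12, a zinc-finger mono-ADP-ribosyltransferase, by 0.50 (adjusted p = 4.62e-05). The CASP1 3′ UTR holds 2 copies of the guide-seed heptamer.

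**Figure D3:**
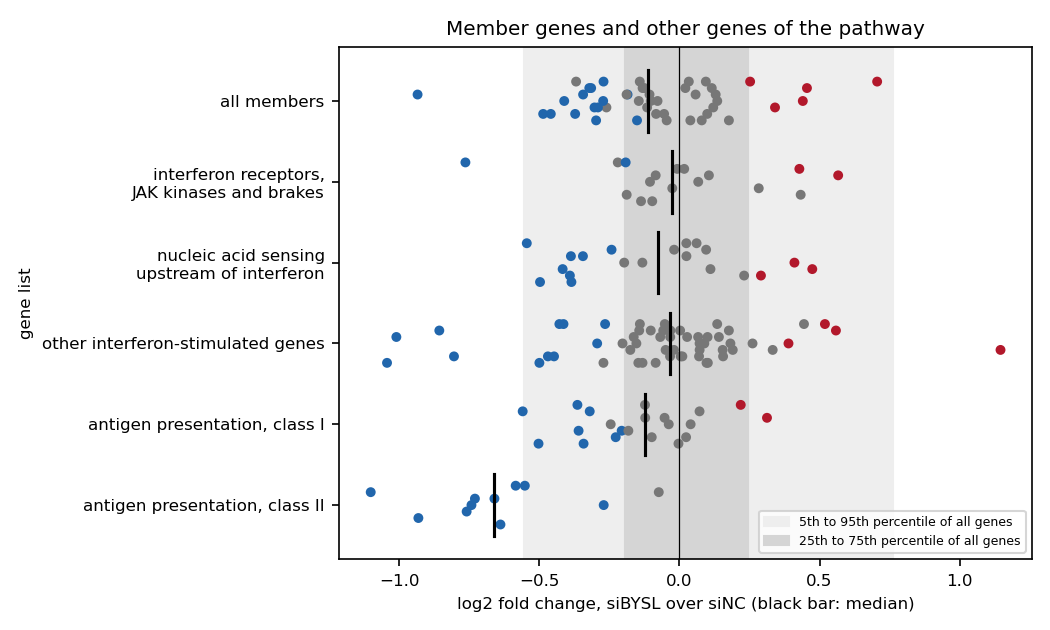
Log2 fold change (siBYSL over siNC) of every tested gene in the member set and in the related lists, 1 point per gene, with the median as a black bar, red and blue points for genes called higher or lower, and shaded bands for the inner and outer percentile ranges of all tested genes. The medians lie between -0.12 and -0.026 except in class II antigen presentation, at -0.66, where 10 of 11 tested genes are called lower.

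GBP2 had the largest rise of the 46. This guanylate-binding protein is an interferon-induced GTPase that acts on vacuoles holding pathogens (ENSG00000162645.13, chromosome 1, 89106132 to 89150456, minus strand). It stood at 89.2, 83.6 and 91.4 CPM in the 3 siNC libraries and 138, 142 and 151 CPM in the 3 siBYSL libraries, 163.1% of control (log2 fold change 0.71, SE 0.056, adjusted p = 8.11e-06), and every knockdown library lay well above every control library. GBP1, its neighbour, stood at 107, 114 and 115 CPM in the controls and 112, 117 and 97.5 CPM after knockdown and was not called (log2 fold change -0.045, 95% interval -0.20 to 0.11, adjusted p = 0.637). Its sign was not stable: the log2 fold change was 0.034 with library totals and 0.027 without siBYSL 3.

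Because neighbours went different ways, the ratio of the counts of 2 neighbouring members was taken within each library, which needs no scaling between libraries. This comparison was chosen after the values were seen. There were 15 neighbouring pairs up to 200 kb apart, and in 10 of them the ratios of the 2 groups did not overlap. Among 14327 neighbouring pairs of tested genes up to the same distance, the ratios did not overlap in 46.4%. Those pairs were directly adjacent tested genes of any level, with a small constant added to the counts. Other genes can lie between the members of a pair, so the comparison is approximate. With 3 libraries against 3, the smallest 2-sided p of the exact permutation test is 0.1, which these 10 pairs reach (0.15 after Benjamini-Hochberg adjustment over the 15), so the values are given as a description. The ratio of IFIT3 to IFIT1 was 2.79, 2.82 and 2.79 in the controls and 1.82, 1.78 and 1.80 after knockdown, a log2 change of -0.64. IFIT1 to IFIT5 went from 2.27 ± 0.059 to 3.47 ± 0.080 (SD, n = 3; log2 change 0.61). The 3 knockdown libraries, siBYSL 3 included, lie close together in both ratios. HERC6 to HERC5, genes 14005 bases apart on chromosome 4, gave 0.501, 0.510 and 0.486 in the controls and 0.306, 0.312 and 0.343 after knockdown (log2 change -0.64). GBP1 to GBP2 went from 1.28 ± 0.079 to 0.759 ± 0.097 (SD, n = 3; log2 change -0.76). TAP2 to TAP1 went from 0.59 ± 0.017 to 0.516 ± 0.028 (SD, n = 3; log2 change -0.20). By contrast MX2 to MX1 stood at 0.228 ± 0.0098 and 0.229 ± 0.0038 (SD, n = 3), and the groups overlapped. They also overlapped for SAMD9 to SAMD9L, PARP9 to DTX3L, CMPK2 to RSAD2 and IFI44L to IFI44. The annotated spans of PARP9 and DTX3L overlap on opposite strands, as do those of CMPK2 and RSAD2. The strand setting of the counting is not stated, so these ratios carry that limit.

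**Figure D4:**
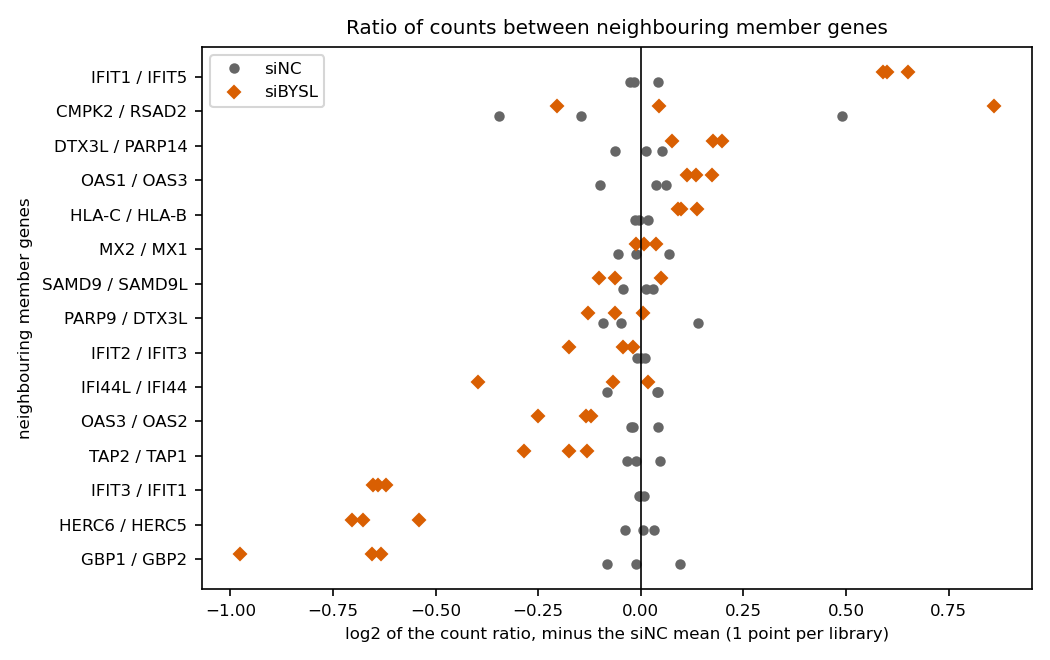
Log2 of the count ratio of 2 neighbouring genes, minus the mean of the siNC libraries, for the 15 pairs of members up to 200 kb apart; each point is 1 library (grey circles siNC, orange diamonds siBYSL). The siNC and siBYSL points of IFIT3 to IFIT1, IFIT1 to IFIT5, HERC6 to HERC5 and GBP1 to GBP2 are separate, and those of MX2 to MX1 overlap.

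The difference between siBYSL 3 and its replicates went with summed exon length. This is the length of the exons of all annotated transcripts of a gene merged, not the length of the transcript expressed. In siBYSL 3, 26 of the 46 were the lowest and 17 the highest of the 3 knockdown libraries, and 3 lay between the other libraries. The same order over all genes is not given here. The 5 members with under 2 kb of exon sequence were higher in siBYSL 3 than in the mean of siBYSL 1 and siBYSL 2 by a median of 0.29 on the log2 scale, and the 19 members of 6 kb or more differed by a median of -0.12. Over all genes the same medians were 0.14 (2820 genes) and -0.10 (5410 genes). Spearman's rho between exon length and this difference was -0.402 across the 46 members and -0.36 across 16229 genes; genes of 1 library share its depth and preparation and are not independent replicates. The part of length in any member's result was not tested.

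**Figure D5:**
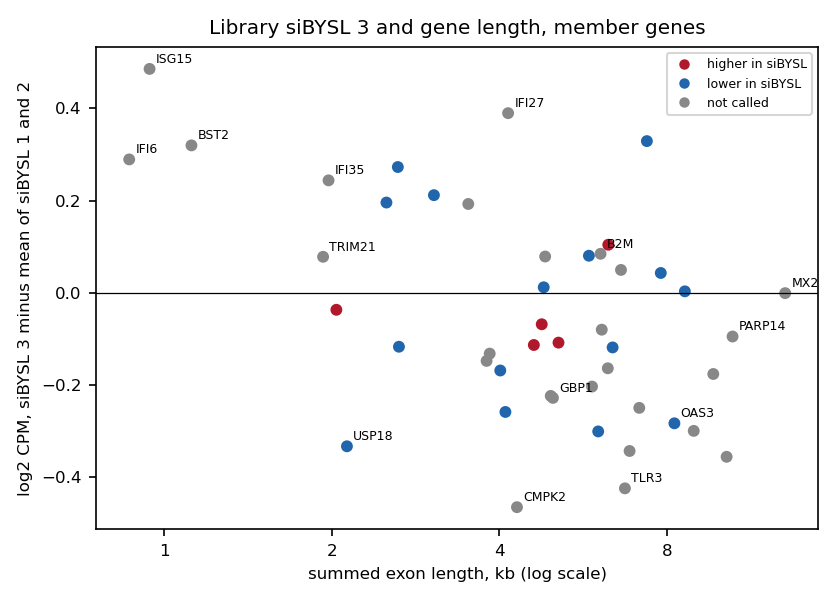
Summed exon length of each of the 46 genes in kb (horizontal log axis) against its log2 CPM difference between siBYSL 3 and the mean of siBYSL 1 and siBYSL 2, coloured by call. Short members such as ISG15 and BST2 lie above 0 and most members of 6 kb or more lie below it.

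Across the 14 alternative settings, 13 of the 20 called members stayed called in the same direction in every one, and 0 of the 20 changed direction. The same count over all called genes is not given here. The 13 are the 5 that rose (GBP2, HERC5, IFIH1, IFIT1 and IFI44) and 8 that fell (USP18, TAP2, HLA-B, IFIT2, IRF1, HLA-C, IFIT3 and TAP1). The other 7 are IRF7, IFIT5, ISG20, MX1, OAS3, HERC6 and TRIM22. Of the 26 not called, 22 had overlapping groups, 12 had positive and 14 negative log2 fold changes, and their intervals lay within -0.69 to 0.46. How often the groups overlapped over all genes not called is not given here. A p that missed the threshold does not show that a gene was unchanged.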

How the data were processed

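Poly(A) RNA of 6 libraries (3 siNC, 3 siBYSL) was read as 150-nt strand-specific pairs, per the labels' protocols. The authors deposited a table of raw counts per gene. HISAT2, DESeq2 and build GRCh38.p13 are named in the submitters' processing notes, and no source used here gives the counting tool, annotation or strand setting. From the counts, edgeR 4.0.16 (trimmed-mean factors, filterByExpr by group, robust quasi-likelihood F test, Benjamini-Hochberg adjustment over 16412 genes, threshold 0.05) compared siBYSL with siNC. Standard errors were the log2 fold change over the root of F, and the 95% intervals, unadjusted, used the fit's degrees of freedom. The scripts were tested on simulated data. Group totals were 28606048 to 30476744 counts in siNC and 27754883 to 32088817 in siBYSL.

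Exon lengths, overlapping genes and 3′ UTRs came from GENCODE 29, and promoter windows (250 bases before to 50 after the start, GRCh38.p14) from RefSeq. The members, roles and lists were chosen with earlier results of these data known. Values in every library are given for members past the threshold, for STAT2, IRF9, IRF1, ISG15 and B2M and for the member of each role with the highest CPM. From each related list up to 4 called genes with the smallest p are named, with each interferon ligand in the table. Genes outside that rule are also named, among them CD74, CIITA, IFNAR2, NLRC5, CALR and genes that hold the guide-seed heptamer. Some genes of these lists are counted but not reported by name here. Alternatives were other scalings and filters, DESeq2 1.42.0, limma-voom (limma 3.58.1), the replicate block and leaving out each library in turn. The neighbour ratios, the exon length check, the values of overlapping genes and the values without siBYSL 3 beside single genes were chosen for the text after the data were seen.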

Additional observations from a re-analysis of the deposited data

How the results depend on the processing

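BYSL stayed lower in all 14 alternatives. Library totals gave 1989 genes called lower over all genes and 9 members called lower. The member median was then -0.033, and -0.067 with upper-quartile factors. Other medians with library totals were -0.16 (transcription factors), -0.0034 (other antiviral effectors), -0.23 (antigen presentation), 0.41 (guanylate-binding proteins), 0.053 (receptors and kinases), 0.0036 (sensing), 0.046 (other interferon-stimulated genes), -0.046 (class I) and -0.58 (class II). With upper-quartile factors they were -0.036 (other antiviral effectors), 0.37 (guanylate-binding proteins), 0.012 (other interferon-stimulated genes) and -0.079 (class I). Without a filter on low counts, where more genes were tested, they were -0.15 (sensing) and -0.17 (class I). Leaving out 1 library gave 5 to 9 members higher and 10 to 20 lower, with 2121 to 3929 higher and 2105 to 4075 lower over all genes. The medians then ran from -0.088 to -0.017 (other antiviral effectors), -0.37 to -0.29 (antigen presentation), -0.11 to -0.015 (sensing), -0.037 to -0.011 (other interferon-stimulated genes) and -0.16 to -0.11 (class I). Signs changed for uncalled genes only: with library totals PARP14 gave 0.024 and GBP1 0.034. Without 1 library, values ran from -0.005 to 0.14 (IFI35), -0.043 to 0.13 (SAMD9), -0.023 to 0.14 (SAMD9L), -0.034 to 0.13 (PARP9), -0.33 to 0.060 (CMPK2) and -0.10 to 0.027 (GBP1). The causes were not tested. Same-numbered libraries did not deviate together (correlations -0.13, 0.060 and 0.011), and the replicate block gave 5 members higher and 13 lower, a member median of -0.12, and 2802 higher and 2764 lower over all genes. With the block ISG15 was called lower, at -0.28 (adjusted p = 0.042). Leaving out the 6 members with a guide-seed heptamer left 5 higher and 13 lower of 40. Leaving out 1 library of 3 reduces the replicates behind each test, and genes at low counts such as USP18 and IRF9 carry wide intervals.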

Other observations

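Genes of class II antigen presentation, which show peptides to helper T cells and are controlled by the transactivator CIITA, were mostly lower after knockdown. Of 11 tested, 0 rose and 10 fell (90.9%), with a median log2 fold change of -0.66. Over all genes tested, 18.4% were called lower. HLA-DRA, the class II alpha chain, stood at 120.4, 124 and 119.7 CPM in the 3 siNC libraries and 72.1, 73.9 and 73.5 CPM in the 3 siBYSL libraries (log2 fold change -0.73, SE 0.048, adjusted p = 2.7e-06). CD74, the invariant chain, stood at 409 ± 5.98 CPM in the controls and 273 ± 22.9 CPM after knockdown (SD, n = 3), called lower (log2 fold change -0.58, SE 0.063, adjusted p = 5.87e-05). HLA-DPA1, another alpha chain, HLA-DMB, a chain of the peptide exchange factor, and CTSS, the protease that trims the invariant chain, fell by 0.64, 0.76 and 0.66 on the log2 scale (adjusted p = 1.35e-05, 3.82e-05 and 2.48e-05). The knockdown values lay below the controls for all 5. These 5 had the smallest p of the list, so that separation is not a further result. How often the groups were separate over all genes is not given here. CIITA itself was the gene not called (log2 fold change -0.074, 95% interval -0.27 to 0.12, adjusted p = 0.542). Whether the class II list differs from the members was not tested.

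Markers of other cell types gave these values. Of the 9 leukocyte markers found in the count table, 3 could be tested and 1 fell. This was CD3D, from 16 to 18 counts in the controls to 6 to 12 after knockdown (log2 fold change -0.99, adjusted p = 0.029). Of the stromal list, 3 of 5 tested rose: ACTA2, RGS5 and PDGFRB. Its summed level was 16.57 to 18.27 CPM in the controls and 22.22 to 23.39 CPM after knockdown. Of the luminal list, CDH1 rose from 4.48 ± 0.10 CPM to 9.18 ± 1.1 CPM (SD, n = 3; adjusted p = 6.64e-05), EPCAM rose at a log2 fold change of 0.54 (adjusted p = 0.000164) and KRT19 fell at -0.34 (adjusted p = 0.00752). Of the 8 cell line markers, 4 fell and 1 rose. AXL, VIM, KRT7 and EGFR fell, with log2 fold changes of -0.51 (adjusted p = 3.05e-05), -0.21 (adjusted p = 0.00823), -0.28 (adjusted p = 0.015) and -0.23 (adjusted p = 0.0383), and CD44 rose at 0.19 (adjusted p = 0.0143). Their part in the results for the members was not tested.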
